A study of Mus musculus with 10 samples.

Results

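The lysosomal genes described here are 51 of the 55401 genes in the count table. They were chosen by name, as a fixed list of lysosomal proteins, and not by any measured value, though with earlier results of these data known. They comprised 11 cathepsins, 12 other hydrolases, 10 membrane proteins, 14 subunits of the vacuolar proton pump, 2 soluble proteins that are not enzymes and 2 transcription factors. All 51 were found by symbol, all had at least 3 counts in every tumor, and all passed the filter on low counts that left 17464 genes for testing.

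RNA was sequenced from 10 subcutaneous tumors of obese male C57BL/6J mice, 5 treated with liraglutide and 5 with vehicle, to ask how treatment with this agonist of the glucagon-like peptide-1 receptor alters tumor gene expression. The mice had become obese on high-fat chow with 60% of calories from fat, were 7 to 17 weeks old at tumor challenge, and received 75000 KPN1.1 cells in the flank. KPN1.1 is a mouse lung adenocarcinoma line that carries the NINJA neoantigen construct, so every tumor of both groups grew from 1 line, outside the lung. Liraglutide was injected daily at 0.2 μg per g body weight and the vehicle was phosphate-buffered saline (PBS), and the tumors were taken between days 19 and 22 after inoculation. Each library was made from a frozen fragment holding tumor and host cells, from which ribosomal RNA had been depleted. In such bulk RNA, fewer cells of a type and less RNA per cell cannot be told apart. The p-values given here measure the spread between these tumors.

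Total counts lay between 9927942 and 14480593 per tumor, at which 3 counts correspond to 0.207 to 0.315 CPM (counts of a gene scaled to a common library size, after adjusting the sizes by the TMM method). Summed over the 51 genes, the level was 4357 to 6332 CPM in vehicle tumors and 4813 to 6475 CPM in liraglutide tumors. Of the epithelial markers, Krt8, a keratin of simple epithelia, was at 1631 to 3294 CPM, while the adhesion protein gene Epcam was at 0.16 to 4.63 CPM and the claudin gene Cldn4 at 0 to 0.98 CPM. Nkx2-1, a transcription factor that marks lung epithelium, was at 17.7 to 132 CPM, and Sftpc, a surfactant protein gene of alveolar type 2 cells, was at 0 to 5.96 CPM.

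Lysosomes are acidic compartments in which cells break down proteins, lipids, glycogen and glycosaminoglycans delivered by endocytosis, phagocytosis and autophagy. Their hydrolases work at low pH, which a multi-subunit ATPase maintains by pumping protons across the membrane. The products leave through membrane transporters, and TFEB and TFE3 are transcription factors that bind a palindromic element, CACGTG with preferred flanking bases, upstream of many lysosomal genes. Macrophages are rich in lysosomes, and carcinoma cells can also express cathepsins strongly and secrete them.

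Levels differed widely among the genes. Per kb of canonical transcript, which allows genes to be compared, the mean over 10 tumors ran from 1.14 CPM per kb for Ctsf to 257 for Ctsh, the cathepsin with aminopeptidase activity that processes surfactant proteins. Ctsh was followed by membrane proteins: Lamp1 and Lamp2, the heavily glycosylated coat proteins of the lysosomal membrane, were at 173 and 148 CPM per kb, Laptm4a at 133 and the tetraspanin Cd63 at 108. Npc2, the soluble cholesterol-binding protein of the lysosome, was at 92.8 CPM per kb. At the low end were Atp6v0d2, a proton pump subunit prominent in osteoclasts and macrophages, at 1.45 CPM per kb, Tfeb at 1.90, and the glycosaminoglycan-degrading enzymes Sgsh at 2.14 and Idua at 2.46. This order depended on the length used. With all annotated exons of a gene as its length, a setting added after seeing the data, Laptm4a (90.8), Lamp1 (85.3) and Ctsh (84.5) led, and the pump subunit Atp6v0e stood at 10.9 in place of 84.8 CPM per kb.

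**Figure D1:**
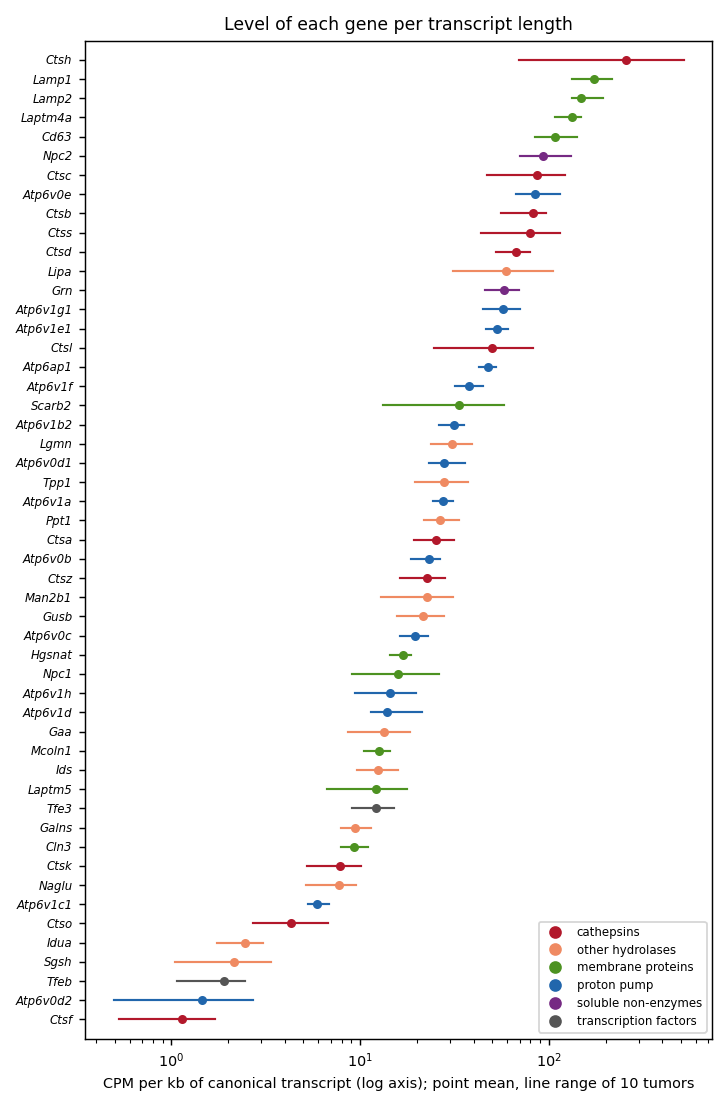
Level of each of the 51 lysosomal genes in CPM per kb of canonical transcript, on a log axis. Points are means and lines the range over the 10 tumors, colored by class; Ctsh is at the top with a mean of 257 and a wide range, and Ctsf at the bottom with 1.14.

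The genes also differed in how far the tumors spread. Measured as the SD of log2 CPM after subtracting the group means, the median spread was 0.41 for the cathepsins, 0.25 for the other hydrolases, 0.20 for the membrane proteins and 0.12 for the proton pump, against 0.33 over all tested genes. From the lowest to the highest tumor, Ctsh differed 7.48-fold, Atp6v0d2 5.50-fold, Scarb2 4.36-fold, Lipa 3.39-fold and Ctsl 3.36-fold. Atp6ap1, an accessory subunit of the pump, differed only 1.22-fold, the narrowest range of the 51 genes.

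**Figure D2:**
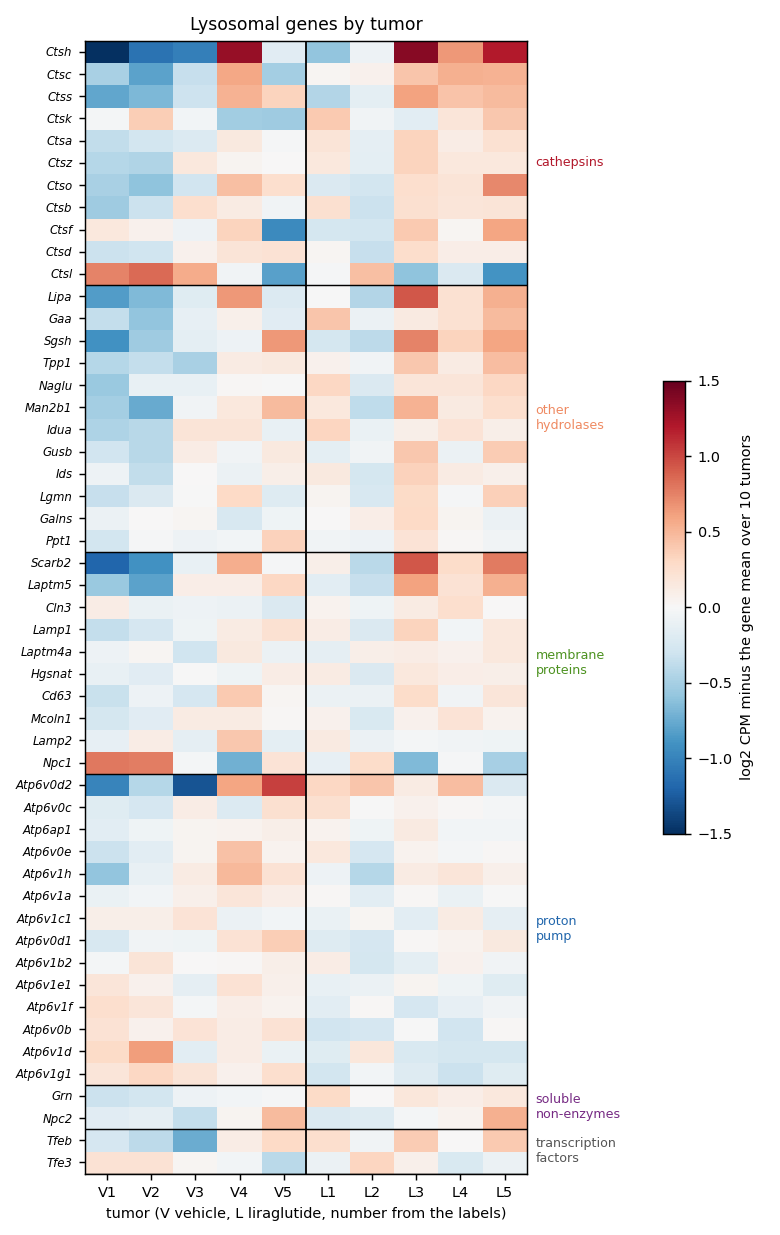
Log2 CPM of each lysosomal gene in each tumor minus that gene's mean over the 10 tumors, in rows grouped by class and columns for vehicle tumors 1 to 5 (V1 to V5) and liraglutide tumors 1 to 5 (L1 to L5). The color scale runs from -1.5 to 1.5; most cathepsins and hydrolases are below their mean in vehicle tumors 1 and 2 and above it in liraglutide tumors 3 and 5, while Ctsl and Npc1 show the opposite. Proton pump rows are mostly pale, except Atp6v0d2, which runs from -1.29 to 1.02.

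Between liraglutide and vehicle tumors, most cathepsins and all other hydrolases on the list had a positive fold change with liraglutide and most of the 14 listed proton pump subunits a negative one, but no gene passed the corrected threshold. By edgeR's quasi-likelihood test, 0 of 51 lysosomal genes had a Benjamini-Hochberg adjusted p under 0.05, as did 0% of the 17464 genes tested, and the smallest adjusted p among the 51 was 0.482. An unadjusted p under 0.05 was found for 9.59% of tested genes. At that threshold, 5 lysosomal genes were higher with liraglutide (Ctsc, Ctsa, Gaa, Tpp1 and Grn), where the background was 3.97% of tested genes, and 3 were lower (Atp6v1g1, Atp6v0b and Atp6v1f), where it was 5.62%. The fold change was positive for 36 of the 51 genes, against 47.4% of all genes tested. The group values did not overlap for 1 gene higher with liraglutide, Grn, and for 2 lower, Atp6v1g1 and Atp6v0b, against backgrounds of 0.607% and 0.888%. DESeq2, run as an alternative, gave 30 of the genes an adjusted p and called 1 of them, Atp6v1g1, lower (log2 fold change -0.40, SE 0.10, adjusted p = 0.0194), beside 1.1% of all genes that it gave an adjusted p.

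These counts rested on single tumors. The 5 higher genes became 2 without vehicle tumor 1, liraglutide tumor 3 or liraglutide tumor 5, became 3 without vehicle tumor 2, vehicle tumor 3 or liraglutide tumor 4, and became 9 without vehicle tumor 4 or liraglutide tumor 2. The 3 lower genes became 5 without vehicle tumor 3, vehicle tumor 5 or liraglutide tumor 2. They became 2 without vehicle tumor 1 or 2, or liraglutide tumor 1, 3, 4 or 5.

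**Figure D3:**
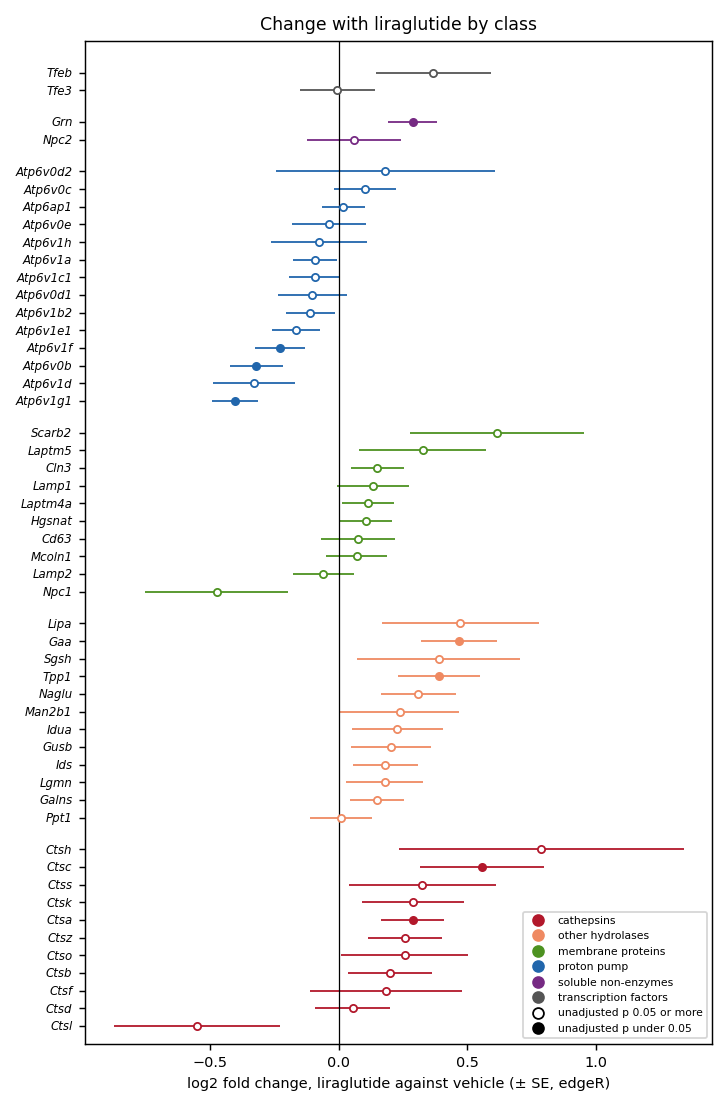
Log2 fold change of each lysosomal gene, liraglutide against vehicle, with its SE from edgeR, grouped and colored by class. Filled points have an unadjusted p under 0.05; the 12 other hydrolases are all right of 0, from 0.01 to 0.47, and 11 of the 14 proton pump subunits are left of it.

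Of the 11 cathepsins, 10 had a positive fold change and the median log2 fold change was 0.26, against -0.02 over all genes tested. Ctsc, the dipeptidyl peptidase that activates granule proteases of leukocytes, was at 158, 126, 173, 330 and 155 CPM in vehicle tumors 1 to 5 and at 225, 230, 295, 319 and 315 CPM in liraglutide tumors 1 to 5 (log2 fold change 0.56, SE 0.24, unadjusted p = 0.0403 by edgeR). Vehicle tumor 4 was above every liraglutide tumor, and the other vehicle tumors were below all of them. Ctsa, a carboxypeptidase that also protects lysosomal β-galactosidase and neuraminidase, was at 71.2, 76.3, 80.1, 102 and 91.6 CPM in vehicle tumors and at 106, 83.9, 116, 99.9 and 108 CPM in liraglutide tumors (log2 fold change 0.29, SE 0.12, unadjusted p = 0.0412). The ranges overlapped, with 3 liraglutide tumors above all vehicle tumors. On the annotation used here, 36.9% of the exon bases of Ctsa lie opposite Neurl2 and Pltp, whose reads cannot be told apart from its own unless strand was used in counting, which the sources do not state.

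Ctsh had a larger difference and a far larger spread. It was at 114, 154, 164, 822 and 295 CPM in vehicle tumors and at 221, 316, 855, 522 and 760 CPM in liraglutide tumors (log2 fold change 0.79, SE 0.55, unadjusted p = 0.182). Vehicle tumor 4 was close to the highest liraglutide tumor, vehicle tumors 1 to 3 lay below every liraglutide tumor, and vehicle tumor 5 lay within their range. Nkx2-1, the lung epithelial transcription factor, had a like profile across tumors, at 25.2, 17.7, 26.6, 95.4 and 66.6 CPM in vehicle tumors and 66.1, 52.2, 109, 99.9 and 132 CPM in liraglutide tumors (log2 fold change 0.99, unadjusted p = 0.0495, adjusted p = 0.520 by edgeR). Nkx2-1 is singled out from 9 epithelial markers after the values were seen. Of the 8 tested, 5 had a positive fold change, among them Krt7 (0.27), Cdh1 (0.47) and Sftpc (1.28) on the log2 scale. The 3 negative ones were the most abundant keratins, with log2 fold changes of -0.26 for Krt8, -0.23 for Krt18 and -0.33 for Krt19. The part of Nkx2-1 in the Ctsh values was not tested.

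Ctsl, an endopeptidase, was the cathepsin with a negative fold change and is given here because its values stood out once seen. It was at 452, 488, 396, 260 and 154 CPM in vehicle tumors and at 267, 370, 178, 233 and 145 CPM in liraglutide tumors (log2 fold change -0.55, SE 0.32, unadjusted p = 0.114). The groups overlapped, with vehicle tumor 5 near the bottom of the liraglutide range. The other cathepsins, namely Ctss, which trims the invariant chain in antigen-presenting cells, Ctsk, a collagenase best known in osteoclasts, Ctsb, Ctsd, Ctsf, Ctso and Ctsz, had log2 fold changes from 0.05 (Ctsd) to 0.33 (Ctss), and none had an unadjusted p under 0.05.

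All 12 other hydrolases had a positive fold change, with a median log2 fold change of 0.23. Gaa, the acid α-glucosidase that breaks down glycogen, was at 37.1, 31.5, 43.5, 50.0 and 42.3 CPM in vehicle tumors and at 63.8, 44.7, 52.1, 55.6 and 66.4 CPM in liraglutide tumors (log2 fold change 0.47, SE 0.15, unadjusted p = 0.00861, adjusted p = 0.482 by edgeR). Of the liraglutide tumors, 4 were above all vehicle tumors. Tpp1, a tripeptidyl peptidase, was at 71.9, 75.7, 69.2, 105 and 107 CPM in vehicle tumors and at 101, 93.4, 128, 105 and 133 CPM in liraglutide tumors (log2 fold change 0.39, SE 0.16, unadjusted p = 0.0327). The vehicle group was split, with tumors 4 and 5 inside the liraglutide range. Lipa, the acid lipase that frees cholesterol from its esters, was at 92.2, 104, 144, 257 and 143 CPM in vehicle tumors and at 164, 121, 312, 192 and 237 CPM in liraglutide tumors (log2 fold change 0.47, SE 0.31, unadjusted p = 0.150). Its ranges overlapped, with vehicle tumor 4 again high, and the log2 fold change was 0.28 without liraglutide tumor 3 and 0.78 without vehicle tumor 4. The glycosaminoglycan-degrading enzymes Naglu, Sgsh, Ids, Idua, Galns and Gusb, the α-mannosidase Man2b1, the asparaginyl endopeptidase Lgmn and the thioesterase Ppt1 had log2 fold changes from 0.01 (Ppt1) to 0.39 (Sgsh), and none had an unadjusted p under 0.05.

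**Figure D4:**
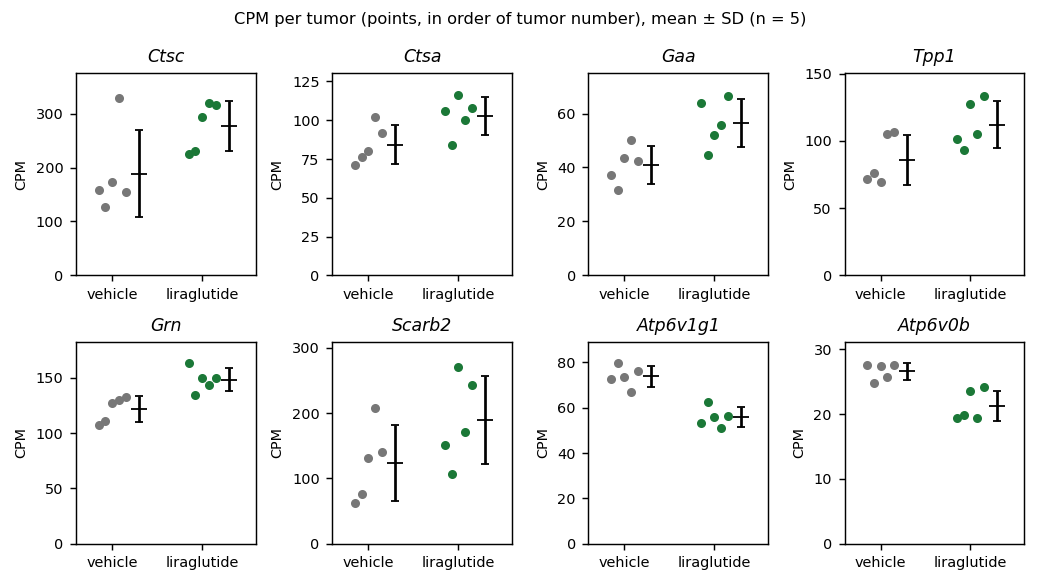
CPM of 8 lysosomal genes in each tumor, with axes that start at 0. Points are tumors in order of their number, gray for vehicle and green for liraglutide, and bars show the mean ± SD of 5 tumors; the groups are separate for Grn, Atp6v1g1 and Atp6v0b and overlap for the others.

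Among the 10 membrane proteins, 8 had a positive fold change, with a median log2 fold change of 0.11, and none had an unadjusted p under 0.05. Scarb2, the receptor that carries β-glucocerebrosidase to the lysosome, was at 62.1, 75.8, 131, 208 and 141 CPM in vehicle tumors and at 151, 107, 271, 171 and 244 CPM in liraglutide tumors (log2 fold change 0.61, SE 0.34, unadjusted p = 0.0963). The groups overlapped over most of their ranges. Npc1, the transporter that exports cholesterol from the lysosome, was at 138, 136, 78.3, 48.4 and 91.9 CPM in vehicle tumors and at 73.1, 96.2, 50.4, 78.7 and 56.1 CPM in liraglutide tumors (log2 fold change -0.48, SE 0.28, unadjusted p = 0.114). Its highest values were in vehicle tumors 1 and 2 and its lowest in vehicle tumor 4, so the liraglutide range lay inside the vehicle range. Lamp1 was at 342, 368, 421, 477 and 513 CPM in vehicle tumors and at 476, 377, 555, 427 and 490 CPM in liraglutide tumors (log2 fold change 0.13, SE 0.14), and its fold change was 0.063 without vehicle tumor 1 and 0.22 without vehicle tumor 5. Of its exon bases, 49.4% lie opposite Gm64292 and Grtp1, a limit that also holds for its level.

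The soluble partner of Npc1 did not share its pattern: Npc2 was at 323, 330, 282, 373 and 505 CPM in vehicle tumors and at 312, 317, 357, 377 and 525 CPM in liraglutide tumors (log2 fold change 0.06, SE 0.18). The highest Npc2 values were in tumor 5 of each group. Lamp2 was at 240, 283, 237, 345 and 236 CPM in vehicle tumors and at 287, 245, 255, 251 and 248 CPM in liraglutide tumors (log2 fold change -0.06, SE 0.12), a fold change that turned positive, to 0.05, without vehicle tumor 4. Laptm5, a membrane protein of blood cells, was at 20.6, 17.4, 32.7, 32.6 and 37.9 CPM in vehicle tumors and at 27.2, 24.0, 46.2, 35.5 and 44.0 CPM in liraglutide tumors (log2 fold change 0.33, SE 0.25). Its broadly expressed relative Laptm4a was at 232, 249, 198, 270 and 230 CPM in vehicle tumors and at 222, 259, 264, 256 and 272 CPM in liraglutide tumors (log2 fold change 0.11, SE 0.10). Both Laptm genes overlapped between the groups. With a tumor left out, the log2 fold change of Laptm5 lay between 0.19 (without vehicle tumor 2) and 0.46 (without vehicle tumor 5), and that of Laptm4a between 0.059 (without vehicle tumor 3) and 0.17 (without vehicle tumor 4). The calcium channel Mcoln1, Cln3, Cd63 and the acetyltransferase Hgsnat had log2 fold changes from 0.07 (Mcoln1) to 0.15 (Cln3).

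Of the 14 listed proton pump subunits, 11 had a negative fold change, with a median log2 fold change of -0.10. The 6 other pump subunits that were tested, described with the rest of the pathway, were all positive, so that over all 20 tested subunits 11 were negative and 9 positive, with a median of -0.06 against -0.02 over all genes. The pump was not tested against the enzymes. Atp6v1g1, a stalk subunit of the cytosolic sector, was at 72.7, 79.6, 73.4, 66.9 and 76.3 CPM in vehicle tumors and at 53.0, 62.4, 56.0, 51.0 and 56.4 CPM in liraglutide tumors. Every liraglutide tumor was below every vehicle tumor (log2 fold change -0.40, SE 0.09, unadjusted p = 0.000843, adjusted p = 0.482 by edgeR), and the fold change lay between -0.44 and -0.37 when each tumor was left out in turn. Atp6v0b, a proteolipid of the membrane rotor, was at 27.6, 24.8, 27.4, 25.7 and 27.6 CPM in vehicle tumors and at 19.4, 19.9, 23.6, 19.5 and 24.1 CPM in liraglutide tumors (log2 fold change -0.32, SE 0.10, unadjusted p = 0.0102). Its groups did not overlap either, though 0.72 CPM separated the lowest vehicle from the highest liraglutide tumor, and 55.1% of its exon bases lie opposite a predicted gene, Gm12841. Atp6v1f, a central stalk subunit, was at 31.6, 30.2, 26.0, 28.5 and 27.5 CPM in vehicle tumors and at 23.7, 26.9, 22.3, 24.4 and 25.5 CPM in liraglutide tumors (log2 fold change -0.23, SE 0.10, unadjusted p = 0.0387). Of its liraglutide tumors, 4 were below all vehicle tumors.

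The remaining subunits did not have an unadjusted p under 0.05. Of the catalytic and stalk subunits of the cytosolic sector, Atp6v1a, Atp6v1b2, Atp6v1c1, Atp6v1d, Atp6v1e1 and Atp6v1h had log2 fold changes from -0.33 (Atp6v1d) to -0.08 (Atp6v1h). In the membrane sector, Atp6v0c was at 0.10 and the accessory subunit Atp6ap1 at 0.02 on the same scale. Atp6v0e was at 44.7, 50.0, 57.5, 76.1 and 58.2 CPM in vehicle tumors and at 62.5, 46.9, 58.2, 55.0 and 56.4 CPM in liraglutide tumors (log2 fold change -0.04, SE 0.14), and turned positive, to 0.01, when libraries were scaled by size alone.

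Transcript length moved with the fold change over all genes. Among 556 protein-coding genes with a canonical transcript under 1 kb, the median log2 fold change was -0.14 and 15.5% had an unadjusted p under 0.05 with a lower level, among 2112 genes of 1 to 2 kb the values were -0.05 and 7.77%, and among 3584 genes over 5 kb they were 0.02 and 4.60%. The transcripts of Atp6v1f (703 bases), Atp6v0b (1039 bases) and Atp6v1g1 (1135 bases) are short, and 7 of the 13 lysosomal genes with a transcript of up to 2 kb were pump subunits. The remaining short pump subunits had log2 fold changes of -0.04 (Atp6v0e, 667 bases), -0.17 (Atp6v1e1), -0.10 (Atp6v0d1) and 0.10 (Atp6v0c). Lysosomal genes of that length outside the pump ran from -0.06 (Lamp2) to 0.79 (Ctsh). The part of transcript length in the proton pump values was not tested.

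Progranulin, encoded by Grn, is a soluble protein that is cut into granulin peptides inside the lysosome. Grn was at 107, 111, 127, 130 and 133 CPM in vehicle tumors and at 163, 135, 150, 144 and 150 CPM in liraglutide tumors (log2 fold change 0.29, SE 0.10, unadjusted p = 0.0115, adjusted p = 0.482 by edgeR). Every liraglutide tumor was above every vehicle tumor, with the nearest tumors at 135 and 133 CPM. On the annotation used here, 33.1% of its exon bases lie opposite Fam171a2 and a predicted gene.

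Neither transcription factor had an unadjusted p under 0.05. Tfeb was at 3.59, 3.24, 2.52, 4.69 and 5.38 CPM in vehicle tumors and at 5.18, 4.16, 5.69, 4.35 and 5.73 CPM in liraglutide tumors (log2 fold change 0.37, SE 0.22, unadjusted p = 0.129). Tfe3, the more abundant of the pair at 12.2 CPM per kb, was at 47.7, 47.7, 42.0, 39.9 and 31.0 CPM in vehicle tumors and at 38.6, 51.4, 43.4, 35.1 and 38.9 CPM in liraglutide tumors (log2 fold change -0.01, SE 0.14). For both factors the groups overlapped, and the sign of the Tfe3 value changed with the scaling.

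The element these factors recognise was then looked for upstream of the lysosomal genes. RefSeq promoter sequences (GRCm38.p6, 250 bases before to 50 after the start) were found for 41 of the 51 genes. CACGTG, which reads the same on both strands, was present in 15 of 41 (36.6%), against 8.09% of 27025 genes with a promoter in the same table. Its extended form TCACGTGA, which contains it, was present in 7 (17.1% against 1.12%): Ctsa, Ctsd, Cln3, Mcoln1, Atp6v0d1, Atp6v0e and Atp6v1a. The element was spread over the classes, in 4 of 9 cathepsins, 4 of 11 other hydrolases, 3 of 8 membrane proteins, 4 of 9 proton pump subunits, and in none of the 2 soluble proteins and 2 transcription factors. The windows below show where it lies in 6 genes chosen to span the classes, with CACGTG in capitals; they end before the annotated start and run in the direction of the gene.
Lamp1, chr8:13159081-13159160, plus strand: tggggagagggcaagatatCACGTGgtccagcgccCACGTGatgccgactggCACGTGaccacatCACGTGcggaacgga
Mcoln1, chr8:3500439-3500498, plus strand: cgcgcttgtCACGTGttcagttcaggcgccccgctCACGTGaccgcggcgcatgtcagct
Atp6v0b, chr4:117887330-117887409, minus strand: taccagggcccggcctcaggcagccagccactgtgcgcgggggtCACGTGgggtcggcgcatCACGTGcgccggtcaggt
Cln3, chr7:126583326-126583396, minus strand: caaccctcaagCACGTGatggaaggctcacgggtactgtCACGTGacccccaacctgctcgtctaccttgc
Ctsd, chr7:142387898-142387957, minus strand: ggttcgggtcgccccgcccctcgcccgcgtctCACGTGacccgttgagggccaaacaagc
Gaa, chr11:119267793-119267853, plus strand: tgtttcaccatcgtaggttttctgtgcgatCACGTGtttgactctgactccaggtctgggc

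Lamp1 held 4 copies within the last 80 bases before its start, and Atp6v0b, Mcoln1 and Cln3 held 2 each in their windows. Ctsd held a further copy 245 bases before its start, outside the window shown. A match is a description of the letters and not of binding. The genes with the element had a median log2 fold change of 0.13, with 10 of 15 positive, and those without it 0.22, with 21 of 26 positive. Gaa and Atp6v0b, which both carry it, had fold changes of opposite sign.

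The 3 pairs of related genes were compared as log2 ratios within each tumor, which do not depend on library scaling. Atp6v0d2, which was at 1.59, 2.43, 1.26, 5.10 and 6.92 CPM in vehicle tumors and at 4.15, 4.49, 3.64, 4.63 and 2.83 CPM in liraglutide tumors, was compared with the widely expressed Atp6v0d1, at 40.2, 45.5, 45.5, 55.2 and 61.1 CPM in vehicle and 41.4, 39.8, 48.0, 49.0 and 52.3 CPM in liraglutide tumors. The CPM of Atp6v0d2 was 0.0277 to 0.113 of that of Atp6v0d1. Ratios were tested on log2 CPM with a prior count of 2, which gave 0.0313 to 0.117 for the same ratio. The log2 ratio averaged -4.03 ± 0.78 with vehicle and -3.50 ± 0.40 with liraglutide (mean ± SD of 5 tumors each), a difference of 0.53 (two-sided exact permutation test, p = 0.206, adjusted over the 3 ratios p = 0.405). The vehicle tumors covered nearly the whole range of the liraglutide tumors. The differences were 0.22 for Laptm5 over Laptm4a (exact permutation p = 0.444, adjusted p = 0.444) and -0.18 for Lamp2 over Lamp1 (exact permutation p = 0.270, adjusted p = 0.405), so no pair passed the test. With a tumor left out, the difference for Atp6v0d2 over Atp6v0d1 lay between 0.29 (without vehicle tumor 3) and 0.76 (without vehicle tumor 5), that for Laptm5 over Laptm4a between 0.043 (without vehicle tumor 2) and 0.36 (without liraglutide tumor 2), and that for Lamp2 over Lamp1 between -0.30 (without vehicle tumor 5) and -0.11 (without vehicle tumor 2). With 5 tumors against 5, the smallest p this test allows is 0.00794.

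Across tumors, 6 of 11 cathepsins, 5 of 12 other hydrolases and 3 of 10 membrane proteins correlated positively with the macrophage markers in the same libraries, as did 7.32% of tested genes, a count that fell to 0 without vehicle tumor 1. Ctsl (r = -0.78) and Ctsk (r = -0.27) had coefficients of the opposite sign. The mean log2 CPM of 15 macrophage markers, all with at least 3 counts in every tumor, was 3.82, 3.95, 4.32, 4.55 and 4.35 in vehicle tumors and 4.09, 4.02, 4.82, 4.48 and 4.59 in liraglutide tumors, with no gap that split the tumors into clusters. Of the 15 markers, 13 had a positive fold change with liraglutide and the median log2 fold change was 0.26. Their summed level did not follow that direction, at 521 to 1047 CPM in vehicle and 558 to 721 CPM in liraglutide tumors, because Mrc1, the mannose receptor, made up most of it in several tumors and averaged 537 CPM in vehicle against 322 CPM in liraglutide tumors. The marker genes, the lysosomal genes and the library scaling come from the same tumors, and the part of macrophage content in the treatment differences was not tested.

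Pearson's r with the marker mean was positive for 40 of the 51 genes, against 48.9% of 17449 tested genes outside the marker list. After Benjamini-Hochberg adjustment of permutation p-values over all 17449 genes, 14 lysosomal genes had a positive and 1 a negative correlation at an adjusted p under 0.05, beside 7.32% and 6.72% of all genes. The 14 held none of the 14 pump subunits. The median r was 0.82 for the cathepsins, 0.73 for the other hydrolases, 0.72 for the membrane proteins and 0.12 for the proton pump. After the group means were subtracted the counts were again 14 and 1, but not for the same genes: Gusb, a hydrolase, no longer passed (permutation test, adjusted p = 0.0643) and the pump subunit Atp6v1h did (adjusted p = 0.0287, r = 0.86).

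Lipa had r = 0.95 and Spearman's rho = 0.94 (permutation test, adjusted p = 0.0115 and 0.0136), and Scarb2 had r = 0.94 and rho = 0.96 (permutation test, adjusted p = 0.00812 and 0.0103). Within groups, after the group means were subtracted, r was 0.95 for each of them. Ctss and Laptm5 each had r = 0.92 (permutation test, adjusted p = 0.0174 and 0.0186), with rho = 0.95 and 0.90. Ctsh had r = 0.88 and rho = 0.90 (permutation test, adjusted p = 0.0283 and 0.0201). Npc1 was the gene with the negative correlation, with r = -0.88 and rho = -0.85 (permutation test, adjusted p = 0.0259 and 0.0335). Ctsl had r = -0.78 and rho = -0.84 (permutation test, adjusted p = 0.0579 and 0.0363), so it passed the threshold by rank only.

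Leaving out the 2 tumors farthest from the median marker mean, vehicle tumor 1 and liraglutide tumor 3, gave r = 0.90 for Scarb2, 0.89 for Lipa, Ctss and Laptm5, 0.80 for Ctsh and -0.80 for Npc1, but with 8 tumors no lysosomal gene passed the adjustment. The count of 14 also depended on other single tumors. It became 0 without vehicle tumor 1, 1 without liraglutide tumor 3, 2 without liraglutide tumor 5, 3 without liraglutide tumor 4, 4 without vehicle tumor 2, 7 without liraglutide tumor 2 and 9 without vehicle tumor 4. The count of 1 negative gene became 0 without vehicle tumor 1, vehicle tumor 2 or liraglutide tumor 3, 4 or 5, and 2 without vehicle tumor 5 or liraglutide tumor 1.

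The macrophage marker mean could not be separated from the means of epithelial and of T and NK cell markers, because these ordered the tumors in nearly the same way. It correlated with the mean of epithelial markers at r = 0.88 and rho = 0.95 (permutation test, adjusted over 3 lists p = 0.00159 and 0.00033) and with that of T and NK cell markers at r = 0.88 and rho = 0.90 (permutation test, adjusted p = 0.00159 and 0.00122). Without vehicle tumor 1 and liraglutide tumor 3 these r were 0.76 and 0.78. With fibroblast markers r was -0.22 and rho -0.19 (permutation test, adjusted p = 0.535 and 0.609). The following counts are therefore not separate relations. The same tests of the lysosomal genes, added after seeing the data, were run against the mean of 8 tested epithelial markers, 7 T and NK cell markers and 10 fibroblast markers, each adjusted over all tested genes outside the list. With the epithelial mean, 17 lysosomal genes had a positive and 2 a negative correlation, beside 10.8% and 10.4% of all genes, and with the T and NK cell mean 13 and 1, beside 10.2% and 8.38%. Both means weigh low and abundant markers alike on the log2 scale. Of 9 listed epithelial markers 6, and of 9 T and NK cell markers 5, had at least 3 counts in every tumor. Sftpc, at 0 to 5.96 CPM, had the widest spread of the epithelial markers within groups (SD of log2 CPM 1.93, against 0.33 for Krt8). Krt8 and Krt19 were highest in vehicle tumor 5. The 9 epithelial markers averaged -0.02 log2 CPM from their means over tumors there, against 0.44 in liraglutide tumor 3. With the fibroblast mean the permutation test gave 0 and 0, beside 0% of all genes in each direction. By Spearman's rho the counts were 13 and 1 for the epithelial mean and 11 and 1 for the T and NK cell mean. For both, leaving out vehicle tumors 1 and 2, which were farthest from the median, left 0 and 0. Ctsh had r = 0.96 and rho = 0.98 with the epithelial mean (permutation test, adjusted p = 0.00641 and 0.0109), and r = 0.96 without those tumors. Ctss had r = 0.94 with the epithelial and 0.95 with the T and NK cell mean (permutation test, adjusted p = 0.00492 and 0.00873). Which of these cell types bears on the lysosomal genes cannot be told apart in these tumors.

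**Figure D5:**
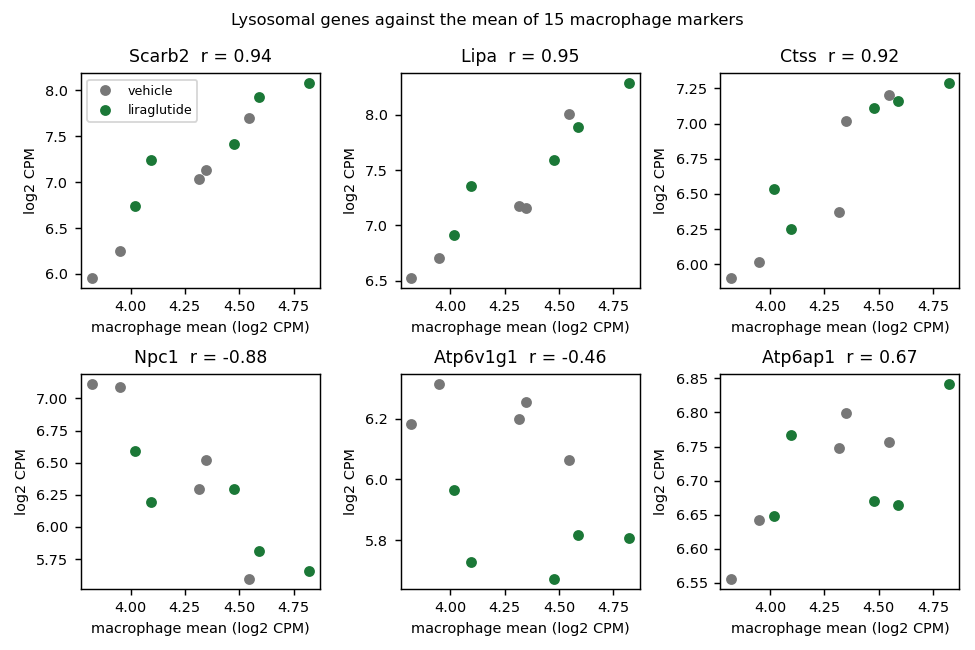
Log2 CPM of 6 lysosomal genes against the mean log2 CPM of 15 macrophage markers, 1 point per tumor, gray for vehicle and green for liraglutide. Scarb2, Lipa and Ctss climb with the marker mean (r = 0.94, 0.95 and 0.92), Npc1 descends (r = -0.88), and for the pump subunits Atp6v1g1 (r = -0.46) and Atp6ap1 (r = 0.67) the points scatter more widely.

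The rest of the pathway was read from a list of 58 other lysosomal genes, of which 55 were tested. None had an adjusted p under 0.05 by edgeR, 41 had a positive and 14 a negative fold change (47.4% of all tested genes were positive), and the median log2 fold change of 0.15 was close to that of the 51 genes. At an unadjusted p under 0.05, 4 were higher and 0 lower, beside 3.97% and 5.62% of all tested genes. Nagpa, which finishes the mannose phosphate tag that routes hydrolases to the lysosome, was at 7.53, 6.29, 7.35, 8.20 and 8.80 CPM in vehicle tumors and at 9.42, 8.49, 12.7, 11.2 and 11.6 CPM in liraglutide tumors (log2 fold change 0.49, SE 0.16, unadjusted p = 0.0102). Igf2r, the large receptor that binds this tag, was at 169, 180, 196, 203 and 260 CPM in vehicle tumors and at 246, 239, 261, 220 and 247 CPM in liraglutide tumors (log2 fold change 0.27, SE 0.12, unadjusted p = 0.0448). In both genes 1 vehicle tumor, number 5, reached into the liraglutide range.

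The remaining pair of the 4 were proton pump subunits. The list held 9 subunits of the pump, of which 6 were tested, and all 6 had a positive fold change, from 0.03 (Atp6ap2) to 0.75 (Atp6v0e2) on the log2 scale. Tcirg1, a membrane stator subunit, was at 64.9, 64.6, 52.4, 52.3 and 63.0 CPM in vehicle tumors and at 66.1, 79.8, 67.9, 67.8 and 81.7 CPM in liraglutide tumors (log2 fold change 0.29, SE 0.11, unadjusted p = 0.0210). Its groups did not overlap, though the nearest tumors were at 64.9 and 66.1 CPM. Atp6v1g2, a relative of Atp6v1g1, was at 4.01, 2.84, 2.00, 3.51 and 4.32 CPM in vehicle tumors and at 3.89, 5.80, 4.55, 5.20 and 6.25 CPM in liraglutide tumors (log2 fold change 0.61, SE 0.23, unadjusted p = 0.0227). Its fold change was opposite in sign to that of Atp6v1g1, whose level was far higher per kb (57.1 against 2.73 CPM per kb).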

How the data were processed

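The authors depleted ribosomal RNA with a kit that marks strand, sequenced read pairs, mapped them with Bowtie 1.0.1 and TopHat 2.0.13 and assigned them to genes with featureCounts. The deposited values are whole-number counts per versioned Ensembl gene, without normalization, for 10 tumors. The methods name GRCm39, whereas the submitters' processing notes list mm10 and GRCh38. The annotation release and strand setting are not given in the sources used here. Symbols, transcript lengths and overlaps came from GENCODE M39 on GRCm39, which matched 51731 identifiers (93.38%, holding 98.31% of counts), so the authors' gene models may differ.

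Counts were filtered (filterByExpr), scaled by TMM and compared with edgeR 4.0.16 (quasi-likelihood F test, treatment as the single factor, prior count 2 for log2 CPM) in R 4.3.3, with Benjamini-Hochberg adjustment over 17464 genes. Level per kb is mean CPM divided by canonical transcript length. Correlations used 100000 permutations and were adjusted over all 17449 genes outside the marker list, in place of the adjustment over the 51 genes that had been planned, and those with other cell type lists were added after seeing the data. Alternatives were DESeq2 1.42.0, limma-voom (limma 3.58.1), scaling by library size alone or by the size factors of DESeq2, a filter of 1 count in any tumor or 10 counts in every tumor, robust empirical Bayes, the tumor number as a block, a prior count of 0.5, and each tumor left out.

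Groups and tumor numbers came from the sample titles. Values per tumor are given for, in each class of over 2 genes, the 2 with the smallest p, the highest per kb and the largest spread, for all genes of smaller classes and of the 3 pairs, and for the 4 other lysosomal genes with the smallest p. Ctsl and Atp6v1f were added after their values were seen. The gene list, classes, marker lists and tests were chosen with earlier results of these data known. Depth limits only genes near 0.315 CPM, below every lysosomal gene of the list, and such floors cover counting error only.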

Additional observations from a re-analysis of the deposited data

Results flagged for a closer look

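In 3 of the 50 sets of 5 tumors examined for the named genes, a single tumor stood far from the other 4 of its group by Dixon's test, which chance does in about 1 in 20 sets. Vehicle tumor 4 had Ctsc at 329.85 CPM, with the next vehicle tumor at 173.04 CPM, and Ctsh at 821.53 CPM, with the next at 294.86 CPM. The distance to the next tumor was 0.77 of the group's range for Ctsc and 0.745 for Ctsh. In the same tumor, the macrophage marker mean was 4.55 log2 CPM, the highest of the vehicle group, and Nkx2-1 was at 95.4 CPM, also the highest of that group. Sftpc was likewise highest there, at 4.85 CPM against 0 to 0.73 CPM in the other vehicle tumors. The other epithelial markers were not: Krt18 was at 1166 CPM there, the lowest of the vehicle group. Krt7 (237 CPM), Krt8 (2103 CPM), Krt19 (1152 CPM) and Cdh1 (1417 CPM) were below vehicle tumor 5. The part of any of these in these values was not tested. Without vehicle tumor 4 the log2 fold change was 0.87 for Ctsc and 1.57 for Ctsh, and the adjusted p by edgeR was 0.0911 and 0.184. Liraglutide tumor 1 had Lamp2 at 286.64 CPM, with the next liraglutide tumor at 254.59 CPM, a distance of 0.767 of the group's range.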

How the results depend on the processing

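The medians of the 6 classes kept their sign under all 18 alternatives, from 0.19 to 0.35 for the cathepsins, 0.16 to 0.32 for the other hydrolases and -0.14 to -0.04 for the 14 proton pump subunits, and scaling moved the median of all genes by less than 0.1 on the log2 scale (-0.02, or 0.04 by library size alone). DESeq2 called 1 gene lower, Atp6v1g1, which had an adjusted p of 0.149 to 0.900 by edgeR with a tumor left out. With each tumor left out, 0 genes were called in either direction by edgeR, 2 to 9 were higher and 2 to 5 lower at an unadjusted p under 0.05, and 0 to 18 had a positive and 0 to 2 a negative correlation with the macrophage marker mean. Without the 2 tumors farthest from the median, both correlation counts were 0. By Spearman's rho, 2 genes were negative.

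The tumor numbers were not taken as pairing the mice. Same-numbered tumors had deviations from their group means that correlated at 0.354, 0.565, -0.0753, 0.0681 and 0.389 for numbers 1 to 5, and 1 of 5 vehicle tumors matched its own number best. With the tumor number as a replicate block, 11 genes were higher and 4 lower at an unadjusted p under 0.05, 0 had an adjusted p under 0.05, and 11 had a positive and 2 a negative correlation.

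Among the 25 named genes followed through the alternatives, the log2 fold change changed sign for Tfe3 (0.0016 with limma-voom, 0.048 by library size alone, 0.018 with at least 10 counts in every tumor, -0.089 to 0.055 with a tumor left out), Atp6v0e (0.013 by library size alone, -0.12 to 0.093 with a tumor left out), Lamp2 (-0.10 to 0.055), Atp6v0d2 (-0.022 to 0.60) and Npc2 (-0.086 to 0.21), the last 3 with a tumor left out. The cause of these changes was not tested. All 51 genes had at least 12 counts in every tumor.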

Other observations

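The other cell types that a tumor fragment can hold were read from marker lists, and 0 of their genes had an adjusted p under 0.05 by edgeR. All 7 tested T and NK cell markers had a positive fold change with liraglutide, with a median log2 fold change of 0.81, but at levels of at most 10.2 CPM per gene. Their sum was 5.37 to 26.1 CPM in vehicle tumors and 8.90 to 34.9 CPM in liraglutide tumors. Fibroblast markers, led by collagens, summed to 1749 to 4107 CPM in vehicle and 2379 to 4027 CPM in liraglutide tumors, with 6 positive and 4 negative fold changes. Epithelial markers summed to 4729 to 10128 CPM in vehicle and 4949 to 7330 CPM in liraglutide tumors, with 5 positive and 3 negative fold changes among 8 tested. Endothelial markers summed to 99.2 to 170 CPM and 106 to 134 CPM, and neutrophil markers to 5.02 to 12.6 CPM and 5.70 to 12.2 CPM.

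Because Atp6v0d2 and Ctsk are known from osteoclasts, markers of those cells were read as well. Their sum was 98.1 to 139 CPM in vehicle and 114 to 147 CPM in liraglutide tumors, of 8 markers 5 were tested, and 4 of the 5 had a positive fold change. Calcr, the calcitonin receptor, which defines mature osteoclasts, was at 0 to 0.52 CPM.

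Sort1, a sorting receptor that delivers proteins to the lysosome, had the largest log2 fold change of the 55 other lysosomal genes tested, at 1.05 (SE 0.50, unadjusted p = 0.0578 by edgeR). It averaged 10.1 CPM in vehicle and 21.1 CPM in liraglutide tumors. The liraglutide values ran from 4.84 CPM in tumor 1, below every vehicle tumor, to 43.3 CPM in tumor 5. Ctse, an aspartic protease of the same list, was the third most abundant of those genes per kb of canonical transcript, at 114 CPM per kb (log2 fold change 0.69, unadjusted p = 0.0818 by edgeR). With all annotated exons as the length its level was 73.7 CPM per kb, and its rank rose. Both genes were picked after their values were seen.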
